A study of Mus musculus with 4 samples.

Results

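The 43 genes described here encode the enzymes and regulators with which a cell detoxifies peroxides, superoxide and electrophiles: NRF2 and its inhibitor KEAP1, enzymes under NRF2 control, thioredoxins, peroxiredoxins, glutathione peroxidases, glutathione transferases, superoxide dismutases and catalase, and the pentose phosphate enzymes that supply NADPH. They were chosen by name, and each was represented by the array probe that carries the gene's name and has the highest mean signal. All 43 of the 43 genes were found, and all 43 were well above background on all 4 arrays, among 13923 genes tested.

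The arrays compare 2 groups of wild type primary embryonic fibroblasts of C57BL/6 mice, with 2 arrays each. Cells of the Xpo5 siRNA group received 60 nM of siRNA against Exportin-5, the protein that carries microRNA precursors out of the nucleus, and cells of the control siRNA group received 60 nM of a negative control siRNA. Both groups were incubated for 12 h, starved in 0.2% serum for 48 h, and fed 20% serum for 24 h with another transfection. Every value here therefore comes from cells fed serum after starvation, and the labels do not give their cell cycle state. The design text mentions 2 independent experiments, but no label says whether the arrays come from different embryo pools, so the spread between arrays of a group may be partly technical.

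NRF2, the product of Nfe2l2, is a transcription factor that KEAP1 marks for degradation in unstressed cells. Oxidants and electrophiles modify KEAP1, NRF2 accumulates, pairs with small MAF proteins and activates genes whose promoters carry the antioxidant response element. Its targets make glutathione and keep it and thioredoxin reduced with NADPH, which glucose-6-phosphate dehydrogenase and 6-phosphogluconate dehydrogenase produce in the oxidative branch of the pentose phosphate pathway.

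The core letters of that element, TGACNNNGC, were searched on both strands of the 300 bases around each gene start, 250 before and 50 after, in RefSeq sequence of build GRCm38.p6. Such a window was given for 36 of the 43 genes. The letters were in the windows of 10 of these 36 genes, a share of 27.8%, and in those of 3781 of all 27025 genes with a window, a share of 14.0%. The sites shown are from genes whose signals lay in opposite directions with Xpo5 siRNA: Gclm and Txnrd1 were lower, Mgst1 and Gstm5 higher, and Prdx1 and G6pdx are the abundant peroxiredoxin and the NADPH enzyme of the set. Capitals mark the 9 letters, which read GCNNNGTCA where the match is on the opposite strand, with 10 bases on each side.
Gclm, chr3:122245413-122245441, plus strand, 134 bases before the start: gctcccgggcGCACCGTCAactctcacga
Txnrd1, chr10:82859104-82859132, plus strand, 92 bases before the start: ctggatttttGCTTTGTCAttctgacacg
Mgst1, chr6:138140461-138140489, plus strand, 56 bases before the start: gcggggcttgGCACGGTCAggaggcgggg
Gstm5, chr3:107895802-107895830, plus strand, 42 bases before the start: caccgcccacTGACCACGCggagggcggg
Prdx1, chr4:116685456-116685484, plus strand, 133 bases before the start: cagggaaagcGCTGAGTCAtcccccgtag
G6pdx, chrX:74428919-74428947, minus strand, 57 bases before the start: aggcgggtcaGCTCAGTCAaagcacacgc
By role, the letters were in 3 of the 4 NRF2 targets with a window (Gclm, Txnrd1 and Srxn1), in 1 of 6 cytosolic and 1 of 3 microsomal glutathione transferases, and in 0 of 5 glutathione peroxidases. A match of letters is not a shown binding site, and genes with a match lay on both sides of 0.

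Levels are log2 of the processed array signal minus the 75th percentile of that array, so a level of 0 is the signal of a spot at that percentile. Differences are Xpo5 siRNA minus control siRNA on that log2 scale, so that 1 is a doubling of the signal. On the 4 arrays, 62.4% to 65.0% of the spots were well above background and 0 were saturated. Xpo5 itself had levels of -2.03 and -2.02 in Xpo5 siRNA cells, against 1.22 and 1.17 in control siRNA cells, a difference of -3.21 ± 0.12 (SE; limma adjusted p = 0.0109), which leaves 10.8% of the control signal. All 10 of 10 fibroblast markers were measured, with summed linear signals of 1753 and 1618 times the array's 75th percentile in Xpo5 siRNA cells and 1594 and 1445 times in control siRNA cells. All 16 of 16 macrophage markers were measured too, and their summed signals were 85.0 and 72.1 in Xpo5 siRNA cells and 59.6 and 42.3 in control siRNA cells. Markers of other cell types were measured in part: 5 of 8 endothelial (not Pecam1, Cdh5 or Tie1), 4 of 7 epithelial (not Epcam, Cdh1 or Cldn4) and 6 of 7 neural (not Gfap). Their summed signals were 9.99 and 8.99 in Xpo5 siRNA cells and 11.0 and 10.9 in control siRNA cells for endothelial markers. They were 5.56 and 4.59 in Xpo5 siRNA cells and 5.73 and 4.57 in control siRNA cells for epithelial markers, and 18.2 and 18.8 in Xpo5 siRNA cells and 23.8 and 23.2 in control siRNA cells for neural markers. Single markers went both ways without overlap, with Kdr at 1.2, Nefl at 1.15 and S100b at 0.80 higher, and Flt1 at -0.26 and Nes at -0.44 lower with Xpo5 siRNA, on the log2 scale. A summed signal is weighted to the brightest markers, such as Flt1 and Nes, and can differ in direction from the median. The median differences were 0.64 for endothelial markers (3 of 5 higher) and 0.42 for neural markers (4 of 6 higher). For epithelial markers the median was -0.30 (2 of 4 higher). The RNA comes from whole cultures, so a change in the number of cells of a type and a change in RNA per cell cannot be told apart.

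None of the 43 genes passed the limma test adjusted over all genes tested, which called 0.0215% of all genes, and the lowest adjusted p among the 43 was 0.200. At an unadjusted p under 0.05 there were 4 genes higher with Xpo5 siRNA, which is 9.30% of the 43 beside 9.39% of all genes, and 1 gene lower, which is 2.33% beside 5.34%. Without the Xpo5 siRNA array numbered 1, 0 genes were past that p in either direction. The arrays of the groups did not overlap for 14 genes that were higher (32.6%, beside 26% of all genes) and for 5 that were lower (11.6%, beside 21.6%). The mean was higher with Xpo5 siRNA for 22 genes and lower for 21 (48.8%, beside 47% of all genes), with a median difference of 0.00 against 0.02 over all genes. Differences were small, since 32 of the 43 genes (74.4%) lay within 0.25 of 0 on the log2 scale, as did 62.5% of all genes, and 5 (11.6%) were over 0.5 from 0, beside 12.8% of all genes. Centring each array on its median in place of the 75th percentile moved the median of all genes by -0.11, which left 1 gene higher (Mgst1) and 2 lower (Prdx6 and Txnrd1) at an unadjusted p under 0.05 and put 10 genes with differences near 0 on the other side of it, among them Gpx1, Gpx3, Gpx4, Gpx7, Sod1, Sod2, Gss and Gclc. The median standard error of a difference was 0.15. These errors are limma's moderated ones, which draw on the variance over all genes besides the 2 arrays a group.

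**Figure D1:**
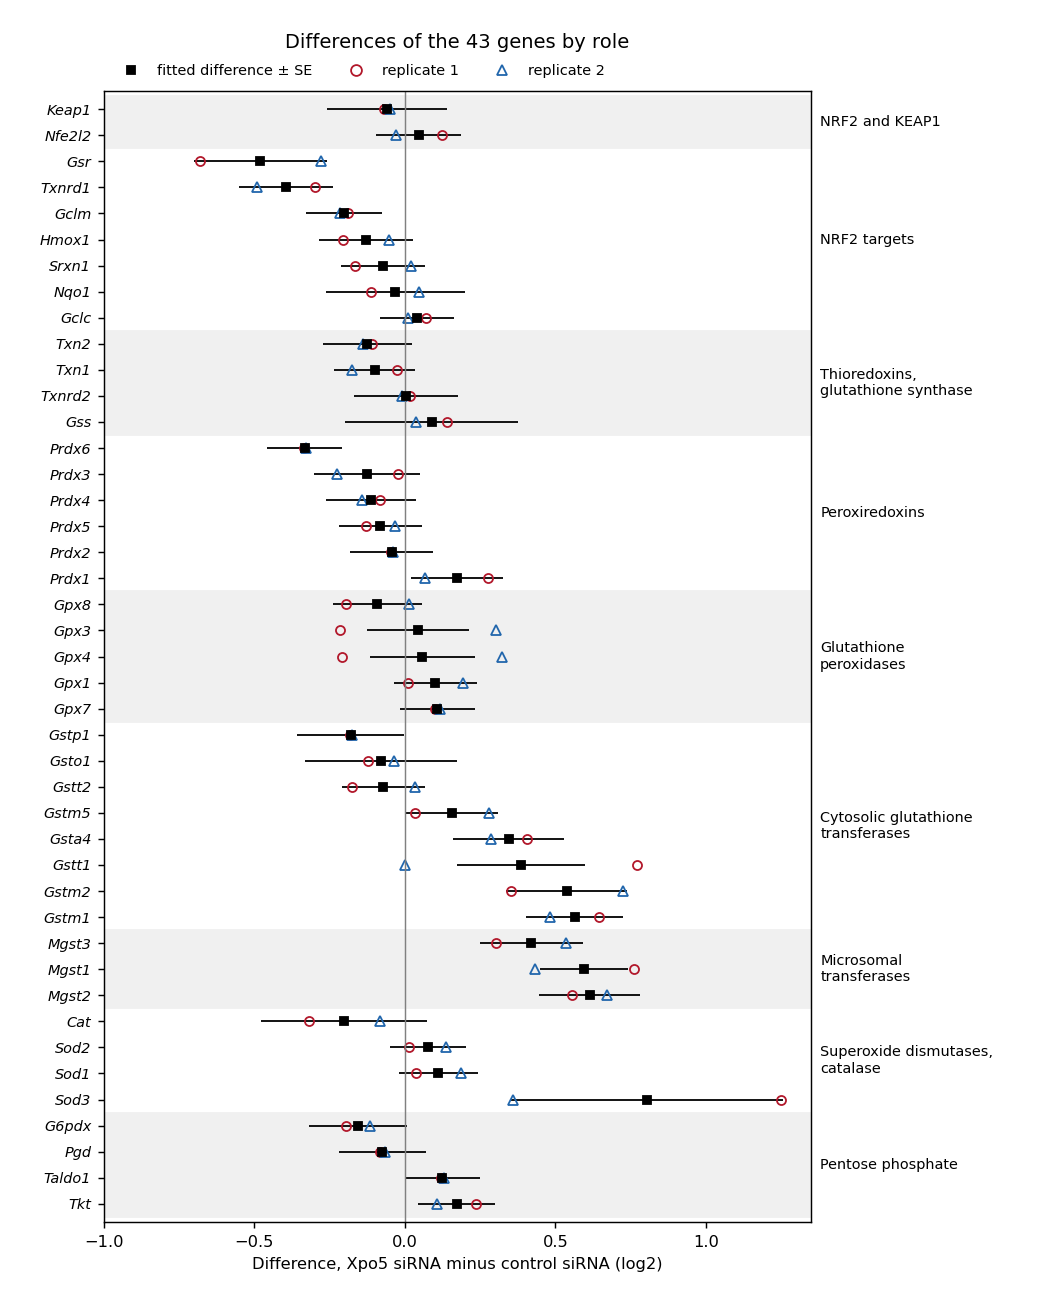
The difference between Xpo5 siRNA and control siRNA (log2, horizontal axis) is drawn for each of the 43 genes, grouped by role. Squares are fitted differences with their standard errors. Red circles are the differences between the 2 arrays numbered 1, and blue triangles those between the 2 arrays numbered 2. The microsomal glutathione transferases lie furthest to the right as a group, between 0.42 and 0.61, and most of the NRF2 targets and peroxiredoxins lie left of 0.

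Glutathione transferases join glutathione to electrophiles; the microsomal members also reduce lipid peroxides or make the leukotriene C4 conjugate. All 3 microsomal genes were higher with Xpo5 siRNA, with a median difference of 0.60, and 5 of the 8 cytosolic genes were higher, with a median of 0.25, beside 0.02 over all genes. With median scaling these medians were 0.48 and 0.14, beside -0.09 over all genes. The medians of the NRF2 targets and the peroxiredoxins were then -0.24 and -0.21. The 4 genes higher at an unadjusted p under 0.05 were Mgst1, Mgst2, Gstm1 and Gstm2, all of them transferases. The groups did not overlap for 7 of the 11 transferase genes, all 7 higher with Xpo5 siRNA. Over all genes, 26% were higher and 21.6% lower without overlap. Gsta4 and Gstt1 are among the 7 by narrow gaps, given below.

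Mgst1, the abundant microsomal transferase of the endoplasmic reticulum and outer mitochondrial membrane, had levels of 2.00 and 1.77 in Xpo5 siRNA cells, against 1.24 and 1.34 in control siRNA cells. Both Xpo5 siRNA arrays lay above both control arrays, and the difference was 0.60 ± 0.15 (SE, n = 2 arrays each), or 1.51-fold, with a limma p of 0.00945 before and 0.200 after adjustment. The other Mgst1 probe gave levels of 1.89 and 1.64 in Xpo5 siRNA cells, against 1.13 and 1.01 in control siRNA cells, a difference of 0.69 ± 0.16. The probes of Mgst1 therefore gave differences of one sign and of like size. The probe used for Mgst1 lies at chr6:138104741-138104800 in build mm9, per the file headers.

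Mgst2, which can make leukotriene C4 outside blood cells, had levels of -1.75 and -1.94 in Xpo5 siRNA cells and -2.31 and -2.62 in control siRNA cells. The groups did not overlap, and the difference was 0.61 ± 0.17 (SE), or 1.53-fold, with a limma adjusted p of 0.224. For Mgst3, another membrane-bound peroxidase and transferase, the levels were 0.75 and 0.62 in Xpo5 siRNA cells and 0.44 and 0.09 in control siRNA cells. Its groups did not overlap either, with a difference of 0.42 ± 0.17 (SE; 95% interval -0.02 to 0.86; limma adjusted p = 0.358), and its other probe that was above background gave 0.44 ± 0.21.

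Gstm1 and Gstm2 encode mu class enzymes and lie close together on chromosome 3, where the probe for Gstm1 is at chr3:107815180-107815239 and that for Gstm2 at chr3:107784622-107784681 in build mm9. Gstm1 had levels of 4.37 and 4.07 in Xpo5 siRNA cells and 3.72 and 3.59 in control siRNA cells, a difference of 0.56 ± 0.16 (SE; 1.48-fold; limma adjusted p = 0.231). Gstm2 had levels of 3.35 and 3.23 in Xpo5 siRNA cells and 3.0 and 2.51 in control siRNA cells, a difference of 0.54 ± 0.20 (SE; 1.45-fold; limma adjusted p = 0.322). Neither gene's groups overlapped. The other Gstm1 probe gave a difference of 0.15 ± 0.16, so the probes of this gene did not give the same size. The mu class genes are close paralogs, and how far a probe also binds the RNA of its neighbours was not tested; Gstm5, of the same cluster, had a difference of 0.16 ± 0.15.

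Of the other cytosolic transferases, Gsta4, which clears the lipid peroxidation product 4-hydroxynonenal, had levels of 0.14 and -0.23 in Xpo5 siRNA cells and -0.27 and -0.51 in control siRNA cells, a difference of 0.34 ± 0.19. The groups of Gsta4 did not overlap, by the narrow gap between -0.23 and -0.27. The theta class gene Gstt1 had a difference of 0.39 ± 0.21, made of 0.77 between the arrays numbered 1 and 0.00 between those numbered 2. Its groups failed to overlap only by the gap between -4.3367 and -4.3374. Gstp1, the pi class enzyme, had levels of 5.91 and 5.62 in Xpo5 siRNA cells and 6.09 and 5.80 in control siRNA cells. Its arrays overlapped, with a difference of -0.18 ± 0.18 (SE; 95% interval -0.64 to 0.28), and its other probe gave -0.03. Gsto1, of the omega class, and Gstt2 differed by -0.08 and -0.07.

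**Figure D2:**
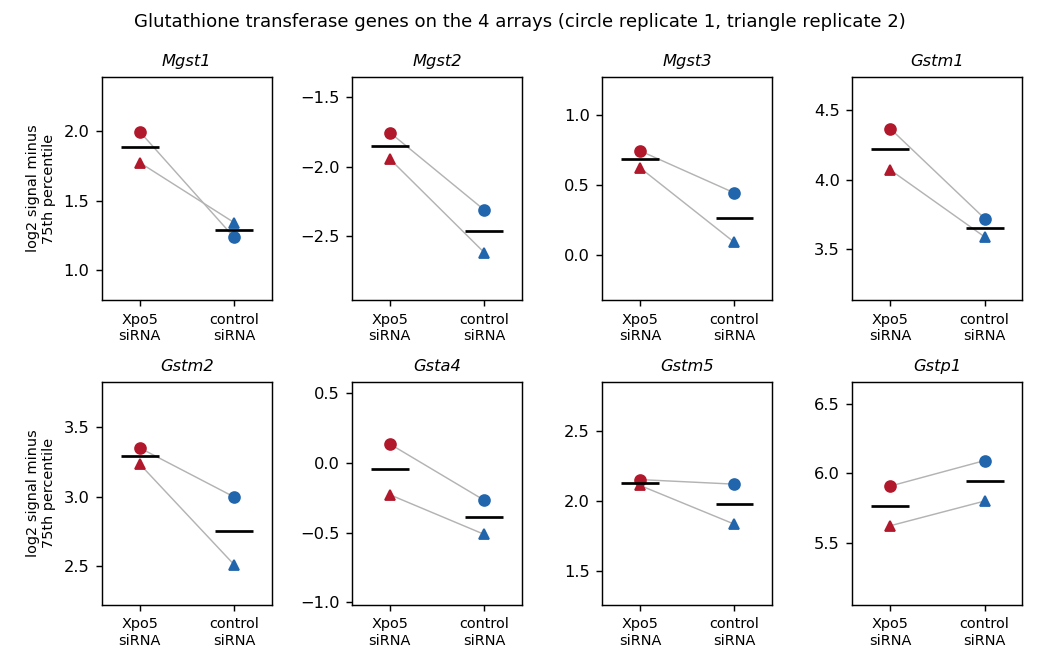
Levels (log2 signal minus the 75th percentile of the array) of 8 glutathione transferase genes on the 4 arrays, Xpo5 siRNA on the left in red and control siRNA on the right in blue, with circles for replicate 1, triangles for replicate 2, black bars for the group means, and vertical axes that span the same number of log2 units. Both red points stand above both blue points for Mgst1, Mgst2, Mgst3, Gstm1, Gstm2 and Gsta4, and not for Gstm5 or Gstp1.

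The size of the transferase differences varied with the slide. Each of the 2 slides held 1 array of each group. Slide 1 held the Xpo5 siRNA array numbered 1 and the control siRNA array numbered 2. Slide 2 held the Xpo5 siRNA array numbered 2 and the control siRNA array numbered 1. A gap between slides therefore also holds the gaps between replicate numbers. The median over the 11 transferases was 0.65 on slide 1 and 0.18 on slide 2, beside 0.06 and -0.03 over all genes. Between arrays of the same number it was 0.35 for number 1 and 0.28 for number 2, beside 0.01 and 0.03 over all genes. Gstm2 differed by 0.84 on slide 1 and 0.24 on slide 2, Mgst2 by 0.86 and 0.37, and Gstm1 by 0.78 and 0.35. Mgst1 differed by 0.65 and 0.54, and each of these genes was positive on both slides. Pooled over the slides the transferase median was 0.39, and it was 0.27 with median scaling, 0.34 with quantile normalization and 0.16 to 0.53 without each array in turn, and 0.24 with normexp background correction without spots of uneven local background. Normexp over all spots gave -0.22 and put Mgst1, Gstm1 and Gstm2 below 0, at -0.22, -0.81 and -0.86. Under that setting the median was -1.065 over the 43 genes and -0.12 over all genes. The highest local background was 405379 on the Xpo5 siRNA array numbered 1, against at most 50 on each other array. The lowest limma adjusted p of the 43 genes was 0.50 in a fit with a slide term. All 16 of 16 macrophage markers were higher with Xpo5 siRNA too, with a median difference of 0.67. Their median was 1.11 on slide 1 and 0.29 on slide 2. By replicate number it was 0.55 for number 1 and 0.82 for number 2. Of these markers Lyz2 had levels of 5.84 and 5.65 in Xpo5 siRNA cells and 5.33 and 4.86 in control siRNA cells, and Cd14 differed by 0.15. None of the 16 was absent from the arrays, and the part of macrophage RNA in the transferase differences was not tested.

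Nfe2l2 and Keap1 themselves showed no difference beyond the spread of their arrays. Nfe2l2 had levels of 3.40 and 3.19 in Xpo5 siRNA cells and 3.28 and 3.22 in control siRNA cells, a difference of 0.05 ± 0.14 (SE; 95% interval -0.32 to 0.41). Its other probes gave 0.21 and -0.13, on both sides of 0. Keap1 had levels of 2.71 and 2.36 in Xpo5 siRNA cells and 2.78 and 2.41 in control siRNA cells, a difference of -0.06 ± 0.20, and arrays with the same replicate number were closer to each other than arrays of a group.

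The 7 genes grouped here as NRF2 targets had a median difference of -0.13, with 6 of them lower with Xpo5 siRNA. None of the 7 had an unadjusted p under 0.05. They are not all targets of NRF2: of 16 other targets, described below, 9 were higher and the median was 0.01. Transferases, peroxiredoxins and pentose phosphate enzymes were grouped by family or pathway and are in neither set, whether or not NRF2 controls them. Of these, 8 of 11 transferases, 1 of 6 peroxiredoxins and 2 of 4 pentose phosphate enzymes were higher. Which of them are NRF2 targets was not tested, so the medians of -0.13 and 0.01 do not describe NRF2 targets as a whole. The largest difference among the 7 was that of Gsr, glutathione reductase, which regenerates glutathione with NADPH. Gsr had levels of 1.47 and 1.31 in Xpo5 siRNA cells and 2.15 and 1.59 in control siRNA cells, a difference of -0.48 ± 0.22 (SE; limma adjusted p = 0.403). The groups did not overlap, and the other probes gave -0.50 ± 0.24 and -0.79 ± 0.32, so all 3 probes of Gsr lay on the same side of 0. The Gsr difference was -0.12 on slide 1 and -0.84 on slide 2, and it was -0.20 without the control siRNA array numbered 1 and -0.76 without the one numbered 2.

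Txnrd1, the cytosolic thioredoxin reductase, had levels of 4.89 and 4.61 in Xpo5 siRNA cells and 5.19 and 5.10 in control siRNA cells. These did not overlap, and the difference was -0.40 ± 0.15 (SE; 95% interval -0.79 to 0.0022; limma adjusted p = 0.342). Gclm, the modifier subunit of glutamate-cysteine ligase, had levels of -0.56 and -0.50 in Xpo5 siRNA cells and -0.37 and -0.29 in control siRNA cells, also without overlap, and a difference of -0.20 ± 0.13 (SE; limma adjusted p = 0.518). Its partner Gclc, the catalytic subunit, stayed within 0.07 on all arrays, with levels of 1.98 and 1.97 in Xpo5 siRNA cells and 1.92 and 1.96 in control siRNA cells, and a difference of 0.04 ± 0.12, by which the groups just failed to overlap.

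The targets most often used as readouts of NRF2 activity differed less. Nqo1, a quinone reductase, had levels of 2.42 and 2.07 in Xpo5 siRNA cells and 2.53 and 2.02 in control siRNA cells, a difference of -0.03 ± 0.23 (SE; 95% interval -0.63 to 0.56). Hmox1, heme oxygenase 1, had levels of 4.05 and 3.92 in Xpo5 siRNA cells and 4.25 and 3.97 in control siRNA cells, a difference of -0.13 ± 0.16. Srxn1, sulfiredoxin, which repairs overoxidised peroxiredoxins, had levels of 4.27 and 4.25 in Xpo5 siRNA cells and 4.43 and 4.23 in control siRNA cells, a difference of -0.07 ± 0.14. All of these overlapped between the groups, and the 95% intervals reached down to -0.63 for Nqo1, -0.53 for Hmox1 and -0.43 for Srxn1. The median of the NRF2 targets was 0.03 on slide 1 and -0.33 on slide 2, and it was 0.01 without the control siRNA array numbered 1, so its side of 0 rested on that array.

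**Figure D3:**
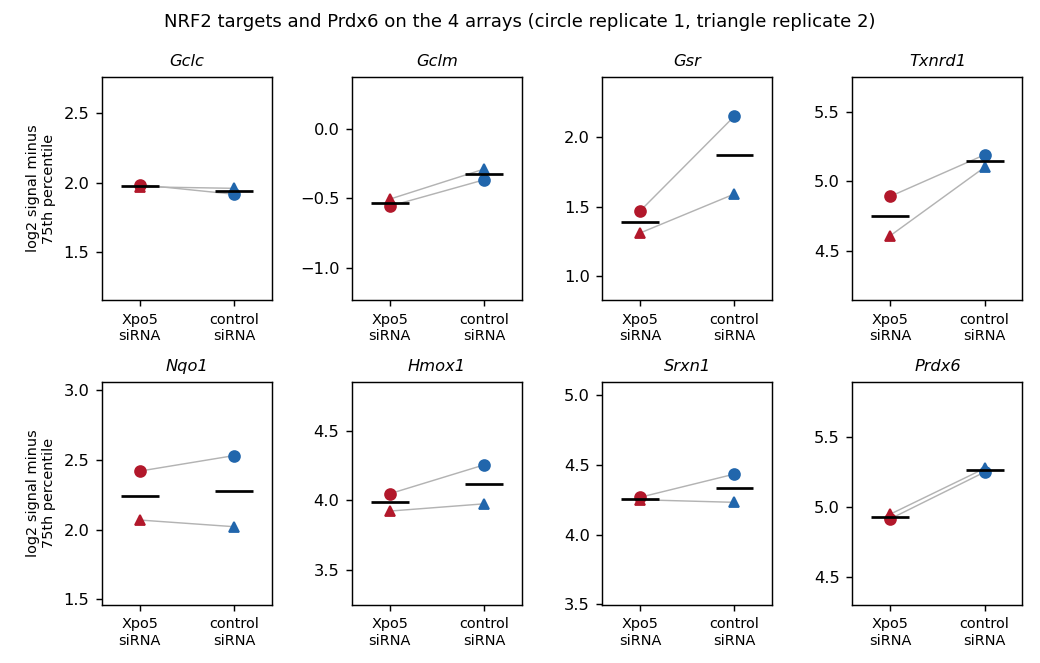
Levels (log2 signal minus the 75th percentile of the array) of the 7 NRF2 targets and Prdx6 on the 4 arrays, drawn with Xpo5 siRNA on the left in red and control siRNA on the right in blue; circles are replicate 1, triangles replicate 2 and black bars group means. Red points lie below the blue ones for Gsr, Txnrd1, Gclm and Prdx6, and the lines of Nqo1 join arrays whose replicate gap is wider than the siRNA difference of -0.03.

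Peroxiredoxins reduce hydrogen peroxide through a reactive cysteine that thioredoxin restores. The 6 genes had a median difference of -0.10, with 5 of them lower with Xpo5 siRNA. Prdx6, the enzyme that also acts on phospholipid peroxides and uses glutathione, was the only one of the 43 lower at an unadjusted p under 0.05: its levels were 4.91 and 4.95 in Xpo5 siRNA cells and 5.25 and 5.28 in control siRNA cells. The arrays of each group lay within 0.04 of each other, and the difference was -0.33 ± 0.12 (SE; limma adjusted p = 0.324) and was -0.36 and -0.30 on the slides. With normexp background correction without spots of uneven local background it was -0.14, with an unadjusted limma p of 0.277. Of the other 3 Prdx6 probes, 2 gave -0.35 and -0.25 and the third gave 0.02 ± 0.34.

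Prdx1, the abundant cytosolic peroxiredoxin, was the exception, with levels of 5.93 and 6.00 in Xpo5 siRNA cells and 5.66 and 5.93 in control siRNA cells, a difference of 0.17 ± 0.15, with groups that just failed to overlap. Prdx2, Prdx3, Prdx4 and Prdx5 differed by between -0.13 and -0.04. The other probe of Prdx4 gave levels of -3.14 and -3.23 in Xpo5 siRNA cells and -2.51 and -2.25 in control siRNA cells, a difference of -0.81 ± 0.16, while the probe used for the gene gave -0.11 ± 0.15, so the probes named for this gene disagree in size. The peroxiredoxin median was 0.07 on slide 1 and -0.26 on slide 2, and 0.01 without the Xpo5 siRNA array numbered 2.

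The thioredoxins pass electrons from thioredoxin reductase to the peroxiredoxins, and Gss makes glutathione in the step after glutamate-cysteine ligase. Txn1, Txn2 and Txnrd2, the mitochondrial reductase, differed by -0.10, -0.13 and 0.00. The mitochondrial thioredoxin Txn2 had levels of 4.61 and 4.41 in Xpo5 siRNA cells and 4.72 and 4.55 in control siRNA cells, which overlap. Gss had levels of 1.17 and 1.70 in Xpo5 siRNA cells and 1.03 and 1.66 in control siRNA cells. Its difference of 0.09 ± 0.29 was far below the gap between replicates, -0.53 in Xpo5 siRNA cells and -0.63 in control siRNA cells.

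Glutathione peroxidases reduce peroxides with glutathione, and Gpx4 does so for lipid peroxides in membranes. All 5 differed by between -0.09 and 0.11. Gpx7, an endoplasmic reticulum member, had levels of 2.87 and 2.84 in Xpo5 siRNA cells and 2.77 and 2.73 in control siRNA cells, without overlap and with a difference of 0.11 ± 0.12. Gpx8, also of the endoplasmic reticulum, had levels of 5.09 and 5.04 in Xpo5 siRNA cells and 5.29 and 5.03 in control siRNA cells, which overlapped, with a difference of -0.09 ± 0.15. Gpx3 and Gpx4 lay on opposite sides of 0 by replicate number: Gpx4 differed by -0.21 between the arrays numbered 1 and by 0.32 between those numbered 2, and Gpx3 by -0.22 and 0.30.

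Among the superoxide dismutases and catalase, the extracellular enzyme Sod3 had the largest difference of all 43 genes and also the largest error. Its levels were -3.57 and -3.15 in Xpo5 siRNA cells and -4.82 and -3.50 in control siRNA cells, a difference of 0.80 ± 0.45 (SE; 95% interval -0.36 to 1.97; limma adjusted p = 0.477). The groups overlapped, and the difference was -0.06 on slide 1 and 1.67 on slide 2, and 0.15 without the control siRNA array numbered 1, the lowest of the 4. Sod1 of the cytosol and Sod2 of mitochondria differed by 0.11 ± 0.13 and 0.08 ± 0.13. Cat, the peroxisomal catalase, had levels of 1.52 and 1.09 in Xpo5 siRNA cells and 1.84 and 1.18 in control siRNA cells, which overlapped, and differed by -0.20 ± 0.28.

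The pentose phosphate enzymes were centred on 0, with a median difference of 0.02, and none had an unadjusted p under 0.05. Tkt, transketolase, which moves carbon back to glycolysis in the non-oxidative branch, had levels of 5.72 and 5.68 in Xpo5 siRNA cells and 5.48 and 5.58 in control siRNA cells. The groups did not overlap, and the difference was 0.17 ± 0.13 (SE; 95% interval -0.16 to 0.50). G6pdx, the X-linked glucose-6-phosphate dehydrogenase that opens the oxidative branch, had levels of 3.53 and 3.33 in Xpo5 siRNA cells and 3.73 and 3.45 in control siRNA cells, which overlapped, with a difference of -0.16 ± 0.16 (95% interval -0.58 to 0.26).

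Taldo1, transaldolase, of the non-oxidative branch, had a difference of 0.12 ± 0.12 and groups that did not overlap. Pgd, 6-phosphogluconate dehydrogenase of the oxidative branch, differed by -0.08 ± 0.15, and its other probe by 0.16 ± 0.23. By the probes used, G6pdx and Pgd lay below 0 and Taldo1 and Tkt above it, each with a 95% interval that includes 0. The other Pgd probe lay above 0, so the values do not separate the branches.

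**Figure D4:**
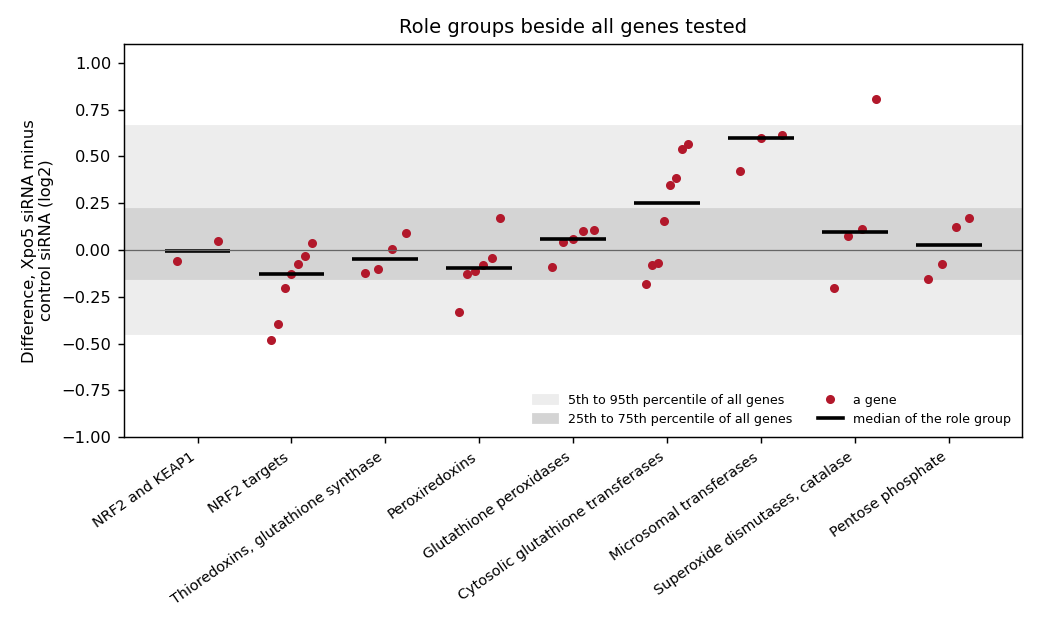
Differences between Xpo5 siRNA and control siRNA (log2, vertical axis) of the genes of each role group (red points, with the group median as a black bar) over shaded bands for the 25th to 75th and the 5th to 95th percentiles of all 13923 genes. The central band runs from -0.15 to 0.22 and the wider one from -0.45 to 0.66; the medians of both transferase groups, 0.25 and 0.60, lie above the central band, and those of the other role groups lie inside it.

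In several genes the arrays numbered 1 and 2 differed by more than the siRNA groups did. For 15 of the 43 (34.9%, beside 28.4% of all genes) the gap between the arrays numbered 1 and 2 had the same sign in both groups and was larger in each than the siRNA difference. Gsto1 had gaps of 0.45 in Xpo5 siRNA cells and 0.53 in control siRNA cells, Cat of 0.42 and 0.66, Nqo1 of 0.35 and 0.51, and Keap1 of 0.34 and 0.36. Of the transferases that differed most, Mgst1 had gaps of 0.22 in Xpo5 siRNA cells and -0.11 in control siRNA cells, smaller than its siRNA difference of 0.60.

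Of 98 other genes of these pathways, 90 were measured, and 0 passed the limma test adjusted over all genes, with 9 higher and 3 lower at an unadjusted p under 0.05, beside 9.39% higher and 5.34% lower over all genes, so the share of higher genes was near that of all genes. Of the other glutathione transferases and related enzymes, 12 of 15 were higher with Xpo5 siRNA, with a median of 0.33 beside 0.02 over all genes. The groups did not overlap for 9 of the 15, all higher, beside 26% higher and 21.6% lower over all genes. Ltc4s, the leukotriene C4 synthase of myeloid cells, had levels of -3.17 and -3.11 in Xpo5 siRNA cells and -3.63 and -3.75 in control siRNA cells, a difference of 0.55 ± 0.13 (SE; limma adjusted p = 0.195). Gsta1 differed by 0.61 ± 0.18 and Gstt3 by 0.38 ± 0.13.

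Of the superoxide sources and copper chaperones, 8 of 9 were measured, among them Duox1, which was above background only on the Xpo5 siRNA arrays, and Atox1, which differed by 0.01. Ncf1, a cytosolic subunit of the phagocyte NADPH oxidase, differed by 1.2 ± 0.31, and Nox4, the oxidase of fibroblasts and other adherent cells, by 0.60 ± 0.21. Ncf1 is abundant in macrophages, whose markers were higher by the values given above. The part of macrophage RNA in its difference was not tested.

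Among the other regulators, Mafg, a small MAF partner of NRF2, had levels of 1.82 and 1.77 in Xpo5 siRNA cells and 2.43 and 2.45 in control siRNA cells, a difference of -0.64 ± 0.12 (SE; limma adjusted p = 0.160). Maff, another small MAF, differed by 0.36 ± 0.13 in the opposite direction, and Bach2, a repressor at the same elements, by -0.33 ± 0.15. Among 16 other NRF2 targets, with 9 higher and a median of 0.01, the glutathione conjugate exporter Abcc1 had levels of 2.04 and 1.85 in Xpo5 siRNA cells and 2.68 and 2.85 in control siRNA cells. Its difference was -0.82 ± 0.15 (SE; limma adjusted p = 0.157), with no overlap, while the related transporter Abcc4 differed by 0.30 ± 0.15 and Osgin1 by -0.30 ± 0.15.

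Of 17 other thiol genes, Selenop, a secreted selenium carrier, had levels of 0.81 and 0.94 in Xpo5 siRNA cells and 0.18 and 0.08 in control siRNA cells, a difference of 0.74 ± 0.13 (SE; limma adjusted p = 0.157). Sesn3 differed by 0.44 ± 0.15 and the methionine sulfoxide reductase Msrb1 by 0.27 ± 0.13. Of 13 other pentose phosphate and NADPH genes, 6 were higher, and Rpia, ribose-5-phosphate isomerase, differed by -0.58 ± 0.14 (SE; limma adjusted p = 0.201), Shpk, which phosphorylates sedoheptulose, by 0.70 ± 0.29 and the mitochondrial malic enzyme Me3 by 0.63 ± 0.39. Of 9 glutathione handling genes, 6 were higher, none over 0.30 in size, with the 5-oxoprolinase Oplah at 0.30, Ggt5 at -0.30 and Slc3a2, the partner of the cystine carrier, at -0.30.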

How the data were processed

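RNA was hybridised to 1-colour (Cy3) Agilent arrays and the scans were read, per the file headers, by version 10.5.1.1 of Agilent Feature Extraction, with probe positions in build mm9. The processed signals in the deposited scanner files are intensities, background-subtracted by that software per the file headers. The authors' deposited series table holds log2 values that equal these signals shifted by a constant per array (within 0.001 for 99.9% of probes), and was used as an alternative.

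Values were log2 of the processed signal minus each array's 75th percentile over 43379 spots. Spots marked as outliers (77 to 134 an array) were left out, spots of a probe were averaged, and of 41174 probes the 25641 that exceeded background clearly on each array of 1 or both groups were kept. Of all probes 26690 were named through RefSeq by accession, 5189 by symbol and 952 by synonym. Each gene was tested by its brightest probe with limma 3.58.1 in R 4.3.3 (lmFit, eBayes, 2-sided, no covariates), with Benjamini-Hochberg adjustment over 13923 genes and a threshold of 0.05. An exact permutation of 2 against 2 arrays cannot go below 0.333. Code was tested on simulated data. Intervals are 95% and, like the standard errors, come from 2 arrays a group with limma's moderated variance. Of its 5.02 degrees of freedom, 3.02 are borrowed from all genes, so a gene's error can exceed the spread of its own arrays.

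The members, role groups, marker lists and lists of other pathway genes were chosen with earlier results of these data known. Values per array are given for genes with an unadjusted p under 0.05, the extremes of each role group and a set of named regulators and targets, and for the 3 other genes with the smallest p of each list; Mgst3 and Gsta4 were added after their values were seen. A gene that this rule would name is not reported here. Alternatives changed the background correction, scaling, filter, probe choice, variance model and blocks, and left out each array in turn.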

Additional observations from a re-analysis of the deposited data

How the results depend on the processing

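None of the 43 genes was called under any of the 15 alternatives, so no call among them depends on the processing; the counts and signs of small differences do. Against 3 genes called of all tested (2 higher, 1 lower), there were 8 (3 and 5) with median scaling and with the deposited log2 table, 4 (0 and 4) with an intensity trend, 1 (1 and 0) with the mean of probes, 0 with no filter and with normexp, 3 (1 and 2) with normexp without spots of uneven background and with quantile normalization, 6 (3 and 3) with the slide as a block, 1 (0 and 1) with the filter on all 4 arrays, and 0 to 87 (0 to 60 higher, 0 to 27 lower) without each array. Against 4 of the 43 genes higher and 1 lower at an unadjusted p under 0.05, there was 1 higher with median scaling and with the deposited table, 0 with normexp, and 0 to 5 without each array. There were 2 lower with the trend, the mean of probes, both of those scalings, normexp without uneven spots and the filter on all 4 arrays, and 0 with no filter, normexp and the slide block, with 0 to 1 without each array.

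With the replicate block, limma called 617 genes (4.43%; 435 higher, 182 lower), 0 of the 43, and 4 of the other pathway genes (Mafg, Abcc1, Selenop and Cybb), with 7 of the 43 higher and 3 lower at an unadjusted p under 0.05 (beside 17.1% and 11.3% of all genes). The lowest adjusted p of the 43 was then 0.0530. No label says that a number marks a shared culture; the gaps between replicates 1 and 2 in the groups correlated over genes at r = 0.451, over genes that are not independent.

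The Xpo5 difference missed the threshold with the mean of probes (-2.54), with no filter (-3.21), with normexp (-2.04), and without either Xpo5 siRNA array, with values from -3.24 to -3.19 without each array. Normexp over all spots placed 18 of the 43 genes on the other side of 0. The highest local background was 405379 on the Xpo5 siRNA array numbered 1, against at most 50 on each other array. The values were Nfe2l2 -1.11, Gclc -0.92, Gclm 0.074, Gss -0.53, Txnrd2 -0.030, Prdx1 -1.06, Gpx1 -1.0, Gpx4 -1.0, Gpx7 -1.05, Gstm1 -0.81, Gstm2 -0.86, Gstm5 -0.79, Gstt2 1.29, Mgst1 -0.22, Sod1 -1.07, Sod2 -1.34, Taldo1 -1.10 and Tkt -0.93. Without spots of uneven background, normexp turned Nqo1 (0.064), Gclc (-0.036) and Sod1 (-0.0036).

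Median scaling and, in this order, the deposited table turned the same 10 genes: Nfe2l2 (-0.068, -0.074), Gclc (-0.073, -0.079), Gss (-0.025, -0.031), Txnrd2 (-0.11, -0.12), Gpx1 (-0.012, -0.018), Gpx3 (-0.071, -0.077), Gpx4 (-0.056, -0.062), Gpx7 (-0.0059, -0.012), Sod1 (-0.0021, -0.0081) and Sod2 (-0.037, -0.043). The mean of probes turned Txnrd2 (-0.10), Prdx2 (0.050), Sod1 (-0.092) and Pgd (0.043), and quantile normalization Txnrd2 (-0.0060). Leaving out each array gave ranges over 0 for Nfe2l2 (-0.059 to 0.15), Txnrd2 (-0.14 to 0.14), Gstt2 (-0.17 to 0.026), Keap1 (-0.24 to 0.12), Nqo1 (-0.29 to 0.22), Gss (-0.23 to 0.40), Prdx2 (-0.11 to 0.028), Prdx3 (-0.31 to 0.055), Prdx5 (-0.17 to 0.0097), Gpx1 (-0.00086 to 0.20), Gpx3 (-0.11 to 0.19), Gpx4 (-0.11 to 0.23), Gpx8 (-0.22 to 0.036), Gsto1 (-0.34 to 0.19), Cat (-0.53 to 0.13), Pgd (-0.16 to 0.014), Hmox1 (-0.27 to 0.010) and Srxn1 (-0.18 to 0.027). The cause was not tested.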
